A study of Mus musculus with 37 samples.

Results

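The comparison set the brain stem of 3 dp/+ mice, which carry 3 copies of a chromosome 7 segment, against the brain stem of 3 +/+ mice, which carry 2. These 6 samples, 1 array each, were chosen by region and copy number from the labels, out of 37 arrays of 31 region samples of 8 mice. The dp/+ mice have the segment duplicated on 1 chromosome, the df/+ mice (2 mice, whose values stand beside the comparison) have it deleted on 1 chromosome, and the +/+ mice are wild type. All mice are male F1 hybrids of C57BL/6N and 129Sv, no sample was treated, and the labels used here give no age. The samples also include the olfactory bulb and cerebellum of these 6 mice and the cortex of 5 of them, without dp/+ mouse 3. Total RNA was hybridised to Affymetrix gene-level arrays, and every value below is a log2 value of the array.

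The segment is the mouse counterpart of the human 16p11.2 interval, whose loss and gain are recurrent in people with autism and other neurodevelopmental conditions. An extra copy of a gene gives its promoter 1 more template in every cell, and the messenger level may follow the copy number fully, in part or not at all. The brain stem holds the midbrain, pons and medulla, with the cell bodies of most serotonin, noradrenaline and dopamine neurons, the motor nuclei of the cranial nerves and many heavily myelinated fibre tracts.

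The samples carried the marks of brain stem, and they also differed in RNA levels of marker genes of neighbouring tissues. Tph2, the enzyme of serotonin synthesis in neurons, lay between 9.64 and 9.92 in dp/+ brain stems and between 9.54 and 9.84 in +/+ brain stems, against a mean of 5.93 in +/+ cortex. Slc6a5, the glycine transporter of inhibitory hindbrain neurons, lay between 11.84 and 11.97 in dp/+ and between 11.60 and 12.23 in +/+ brain stems, against 6.71 in +/+ cortex. By lists of markers, 2 +/+ libraries stood apart. The mean of 8 cortex pyramidal genes was 8.53, 8.14 and 8.27 in dp/+ mice 1, 2 and 3, 8.12 and 8.23 in df/+ mice and 8.92, 9.21 and 8.29 in +/+ mice 1, 2 and 3, and it averaged 9.93 in +/+ cortex. The mean of 11 choroid plexus genes was 7.43, 7.49 and 7.60 in dp/+ and 8.16, 8.65 and 7.45 in +/+ brain stems. In both lists +/+ mice 1 and 2 were above all other brain stem libraries, and +/+ mouse 3 was not. Among dp/+ mice, mouse 1 was highest for 11 cerebellar granule cell genes, with 9.60, against 8.48 to 8.69 in the other dp/+ and 8.51 to 8.79 in the +/+ brain stems. Mouse 2 had 8.21 for the pituitary hormone gene Gh, against 6.69 or less in the other 5 libraries. Results are therefore given also without the brain stem libraries of +/+ mice 1 and 2, which leaves +/+ mouse 3 alone on that side, with a spread assumed to be like that of the other groups.

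**Figure D1:**
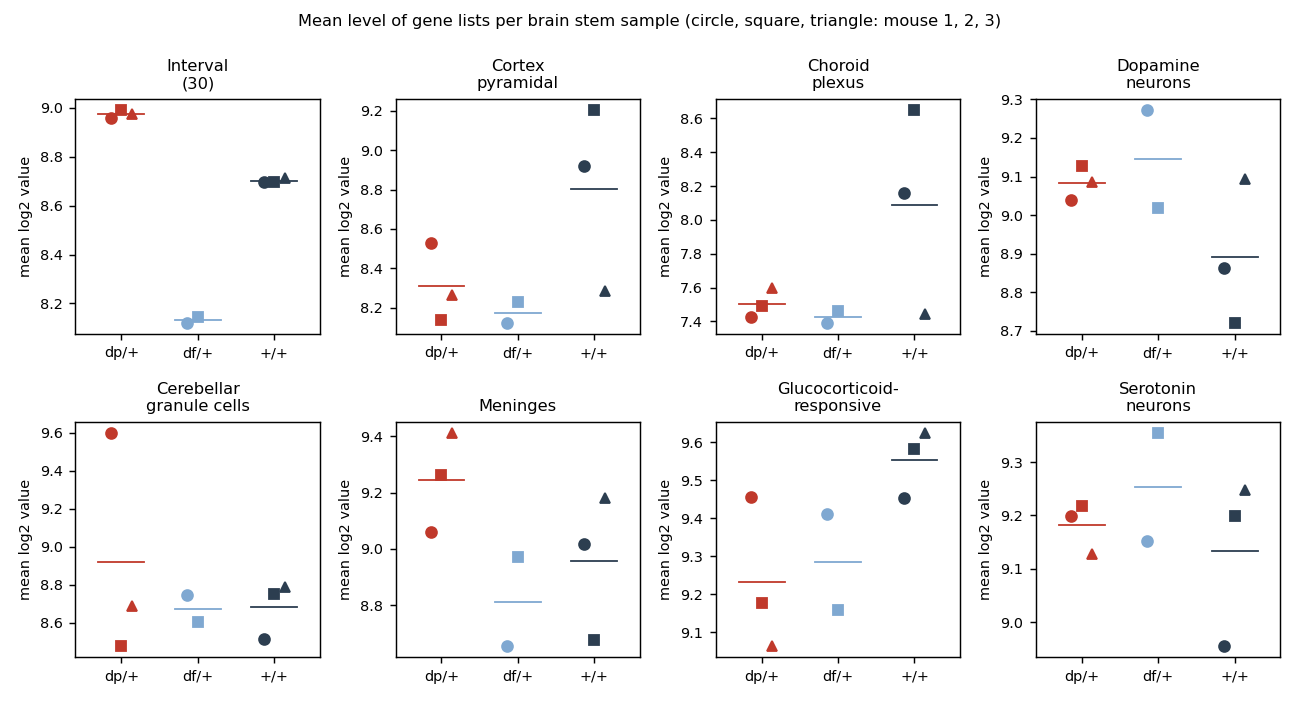
Mean log2 value of 8 gene lists in each brain stem sample, with dp/+, df/+ and +/+ from left to right and a line at each genotype's mean. The interval list separates all 3 genotypes, while the cortex pyramidal and choroid plexus lists are high in +/+ mice 1 and 2 (circle and square) and the cerebellar list is high in dp/+ mouse 1.

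Of 33 genes listed for the interval, 30 were measured, while for Prrt2, Mapk3 and Ino80e no probe set named that gene alone. The mean of the 30 genes was 8.96, 8.99 and 8.98 in dp/+ brain stems and 8.70, 8.70 and 8.71 in +/+ brain stems, and it differed by less within a genotype than between them. The difference was 0.27 log2, which is 121% of the +/+ level, where 150% would be proportional to copy number. Set against +/+ mouse 3 alone it was 0.26 log2, or 120%. All 30 genes had a dp/+ mean above its +/+ mean, a direction that 49.4% of all 19938 genes showed. The median difference of the 30 genes was 0.32, against -0.002 for all genes. Against +/+ mouse 3 alone this median was lower, 0.23, while that of all genes was again -0.002.

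No interval gene passed an adjusted p of 0.05 in the limma fit (Benjamini-Hochberg over all genes), in which 0.00502% of all genes were called higher and 0.01% lower. At an unadjusted p under 0.05, 20 of the 30 were higher and 0 lower, beside 1.58% higher and 1.97% lower among all genes. For 18 of the 30 all dp/+ values lay above all +/+ values, which 2.83% of all genes did, and for 0 of the 30 below, which 3.34% did. Without the brain stem libraries of +/+ mice 1 and 2, 13 were higher at an unadjusted p under 0.05, beside 0.762% of all genes. Of 11 interval genes whose mean over the brain stem samples lay below the median of all genes (7.99), 4 were higher at that unadjusted p with all libraries, with a median difference of 0.12, and of the 19 brighter ones 16 were, with a median of 0.34. Against +/+ mouse 3 alone the medians were 0.14 for the dimmer and 0.28 for the brighter genes.

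**Figure D2:**
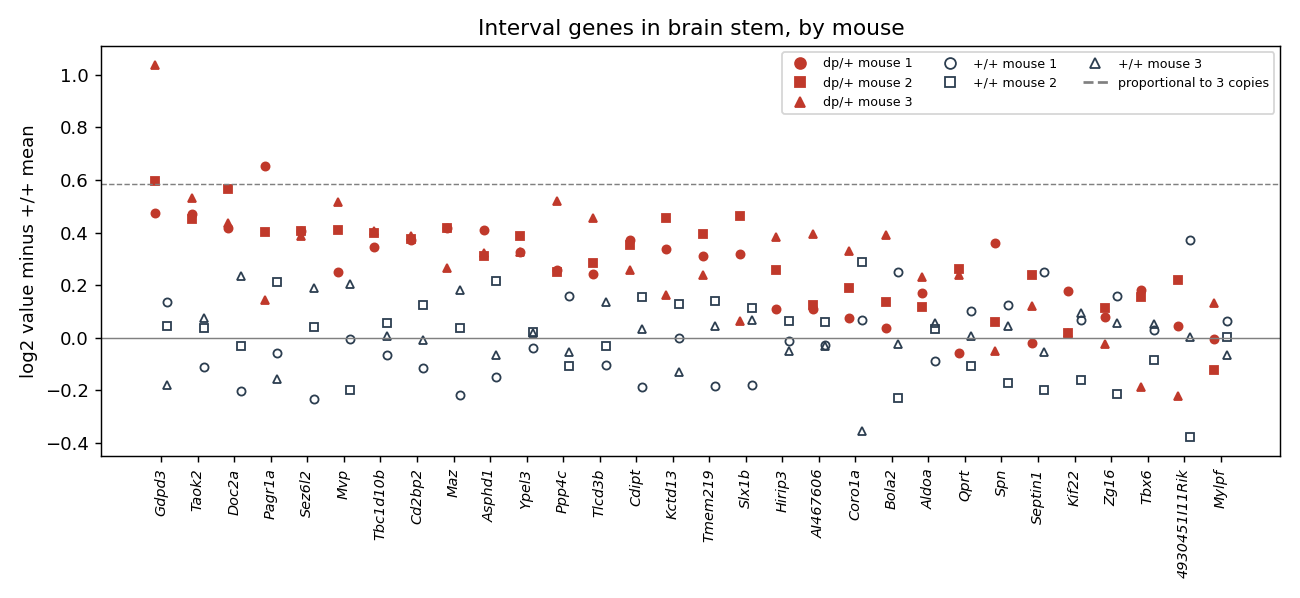
Log2 value of each measured interval gene in each dp/+ (filled) and +/+ (open) brain stem, minus the +/+ mean of that gene, in order of the difference. The dashed line is the value proportional to 3 copies, 0.58. The dp/+ values lie above the +/+ values for 18 genes, and Gdpd3 alone has a mean above the dashed line.

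Upstream sequences are shown for 4 interval genes: the neighbours Gdpd3 and Ypel3, both among those with the smallest p, Tbc1d10b, which holds several motifs, and Qprt, whose groups overlapped. Each is the 250 bases before the annotated gene start, 5′ to 3′ on the strand of the gene, from RefSeq (GRCm38.p6). Capitals mark matches, on either strand, to the GC box GGGCGG, to GGGAGGG, the letters bound by the zinc finger factor Maz, which is itself encoded in the interval, or to the TATA box TATAAA. Matches may overlap, as in Tbc1d10b.
Gdpd3: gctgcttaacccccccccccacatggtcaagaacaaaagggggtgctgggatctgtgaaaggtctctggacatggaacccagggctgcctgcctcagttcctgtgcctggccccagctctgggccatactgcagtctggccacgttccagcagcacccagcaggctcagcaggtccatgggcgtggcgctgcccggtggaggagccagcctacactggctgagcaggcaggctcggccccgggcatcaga
Ypel3: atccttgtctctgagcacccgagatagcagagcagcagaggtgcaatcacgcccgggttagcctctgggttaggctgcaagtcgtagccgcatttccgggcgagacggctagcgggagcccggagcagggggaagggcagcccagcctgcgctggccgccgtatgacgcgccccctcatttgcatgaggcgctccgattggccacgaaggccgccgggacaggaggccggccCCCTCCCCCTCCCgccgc
Tbc1d10b: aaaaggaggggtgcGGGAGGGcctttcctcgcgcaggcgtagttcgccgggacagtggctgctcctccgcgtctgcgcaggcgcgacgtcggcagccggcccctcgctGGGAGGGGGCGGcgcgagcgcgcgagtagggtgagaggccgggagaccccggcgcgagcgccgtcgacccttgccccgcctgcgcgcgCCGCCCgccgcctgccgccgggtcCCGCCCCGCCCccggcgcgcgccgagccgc
Qprt: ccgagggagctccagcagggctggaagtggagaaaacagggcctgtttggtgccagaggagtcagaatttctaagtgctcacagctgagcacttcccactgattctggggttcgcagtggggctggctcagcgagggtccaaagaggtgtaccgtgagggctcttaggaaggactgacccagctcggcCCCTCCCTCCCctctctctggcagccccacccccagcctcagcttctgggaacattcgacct
The windows are chr7:126766164-126766413 on the plus strand for Gdpd3, chr7:126776713-126776962 on the plus strand for Ypel3, chr7:127208469-127208718 on the minus strand for Tbc1d10b and chr7:127122030-127122279 on the minus strand for Qprt. The Gdpd3 window holds 6 CpG dinucleotides and no match to the 3 motifs, and the Ypel3 window holds 23 CpG and 2 GGGAGGG matches. Tbc1d10b holds 45 CpG, 4 GC boxes and 2 GGGAGGG matches. Qprt holds 6 CpG and also 2 GGGAGGG matches. The table holds 33 promoters of 25 interval genes. GGGAGGG occurs in 13 of these 33 and in 19.7% of all 32851 promoters, the GC box in 14 and in 32.7%, and TATAAA in 2 and in 12.4%. These are matches of letters and not measured sites.

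Among interval genes that act on lipids and membranes, Gdpd3, a lysophospholipase D, had the smallest p of the 30. It was 8.48, 8.60 and 9.04 in dp/+ brain stems, against 8.14, 8.05 and 7.82 in +/+ brain stems. All dp/+ mice were above all +/+ mice, and the difference was 0.70 ± 0.15 log2 (SE, n = 3 each, as for all dp/+ differences in brain stem below), or 163% of the +/+ level (95% interval of the difference 0.40 to 1.00, adjusted p = 0.191). Cdipt, which makes phosphatidylinositol, was 11.15, 11.13 and 11.04 in dp/+ and 10.59, 10.93 and 10.81 in +/+ brain stems (difference 0.33 ± 0.09, adjusted p = 0.643). Tlcd3b, a ceramide synthase, was 8.97, 9.01 and 9.19 in dp/+ and 8.63, 8.70 and 8.86 in +/+ brain stems (0.33 ± 0.11). In both, the groups did not overlap. Mvp, the main protein of the vault particle, was 7.99, 8.15 and 8.26 in dp/+ and 7.74, 7.54 and 7.95 in +/+ brain stems. Its difference was 0.39 ± 0.10 with all libraries and 0.19 against +/+ mouse 3 alone.

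Among genes of neuronal signalling, Doc2a, a calcium sensor of transmitter release, was 9.96, 10.11 and 9.98 in dp/+ brain stems, against 9.34, 9.51 and 9.78 in +/+ brain stems. The difference was 0.47 ± 0.11 (139% of +/+, adjusted p = 0.261), and 0.26 against +/+ mouse 3 alone, the highest of the +/+ mice. Taok2, a kinase at the head of MAP kinase chains, was 10.86, 10.84 and 10.92 in dp/+ brain stems, against 10.27, 10.42 and 10.46 in +/+ brain stems. All dp/+ values were higher, by 0.48 ± 0.11 on average (140%, adjusted p = 0.261), and by 0.42 against +/+ mouse 3 alone. Sez6l2, a membrane protein of neurons, was 11.68, 11.68 and 11.66 in dp/+ and 11.04, 11.32 and 11.47 in +/+ brain stems. It too was higher in every dp/+ mouse (0.40 ± 0.11), with 0.21 against +/+ mouse 3 alone. Kctd13, an adaptor of Cul3 ubiquitin ligases, was 10.45, 10.57 and 10.27 in dp/+ and 10.11, 10.24 and 9.98 in +/+ brain stems, a difference of 0.32 ± 0.12. Ppp4c, the catalytic subunit of protein phosphatase 4, was 9.56, 9.55 and 9.82 in dp/+ and 9.46, 9.20 and 9.25 in +/+ brain stems, a difference of 0.34 ± 0.10. Neither gene's groups overlapped. Coro1a, an actin-binding protein of leukocytes and neurons, was 8.89, 9.004 and 9.14 in dp/+ and 8.88, 9.10 and 8.46 in +/+ brain stems. Here the groups overlapped, and the difference was 0.20 ± 0.15 with all libraries and 0.50 against +/+ mouse 3 alone.

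Among nuclear and RNA-processing genes, Cd2bp2, a protein of the U5 spliceosome particle, was 8.64, 8.65 and 8.66 in dp/+ brain stems, against 8.15, 8.40 and 8.26 in +/+ brain stems. The 3 dp/+ values were nearly equal and all higher (0.38 ± 0.09, 130% of +/+, adjusted p = 0.288). Maz was 10.24, 10.24 and 10.09 in dp/+ and 9.60, 9.86 and 10.005 in +/+ brain stems (0.37 ± 0.11, and 0.21 against +/+ mouse 3 alone). Pagr1a, a component of histone methyltransferase complexes, was 10.91, 10.66 and 10.40 in dp/+ and 10.20, 10.47 and 10.10 in +/+ brain stems. Its groups overlapped and its interval was wide, 0.02 to 0.77 around 0.40. Hirip3, a histone-binding protein, differed by 0.25 ± 0.09, Slx1b, a structure-specific endonuclease, by 0.28 ± 0.11, and Bola2, which takes part in iron-sulfur cluster assembly, by 0.19 ± 0.12.

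Ypel3, a small zinc-binding protein, was 11.86, 11.92 and 11.86 in dp/+ brain stems, against 11.49, 11.55 and 11.55 in +/+ brain stems. The difference was 0.35 ± 0.08 (127% of +/+, adjusted p = 0.261), and 0.32 against +/+ mouse 3 alone. Tbc1d10b, a GTPase-activating protein of Rab proteins, was 9.57, 9.63 and 9.64 in dp/+ and 9.17, 9.29 and 9.24 in +/+ brain stems. Its groups were apart as well (0.38 ± 0.11, and 0.38 against +/+ mouse 3 alone). Asphd1, a protein with an aspartate hydroxylase domain, differed by 0.35 ± 0.09 and Tmem219, a receptor for an insulin-like growth factor binding protein, by 0.31 ± 0.11. Aldoa, the glycolytic aldolase, was 13.35, 13.30 and 13.41 in dp/+ and 13.09, 13.22 and 13.24 in +/+ brain stems. It had the smallest difference of the genes without overlap, 0.17 ± 0.08, or 113% of the +/+ level. AI467606, known by its identifier only, differed by 0.21 ± 0.08, also without overlap, and by 0.12 without dp/+ mouse 3.

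For 10 interval genes the 95% interval of the difference included 0. Besides Coro1a and Bola2 these were Mylpf, a myosin light chain of fast muscle (0.00 ± 0.11), 4930451I11Rik (0.01 ± 0.15), Tbx6, a factor of the early mesoderm (0.05 ± 0.10), Zg16, a secretory protein of the gut (0.06 ± 0.14), Kif22, a kinesin of the mitotic spindle (0.07 ± 0.09), Septin1 (0.11 ± 0.11), Spn, a surface protein of leukocytes (0.12 ± 0.12), and Qprt, an enzyme of NAD synthesis (0.15 ± 0.11). Zg16 lay at 5.08, 5.11 and 4.98 in dp/+ and 5.16, 4.79 and 5.05 in +/+ brain stems, among the dimmest genes of the array. The files hold no call of detection, so whether such genes were expressed was not tested. Over all 30 genes the 95% interval lay above 0 for 20 and below the proportional value of 0.58 for 22. No file relates array signal to known amounts of RNA, so these percentages are those of the array scale.

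In df/+ brain stems, which share the +/+ mice with the comparison above, the mean of the 30 genes was 8.12 and 8.14, or 67.3% of the +/+ level. In that contrast 18 of the 30 genes fell past the adjusted threshold, beside 0.211% of all genes. Gdpd3 was 5.35 and 5.49 in df/+ brain stems, a difference from +/+ of -2.58 ± 0.16 log2 (SE, 2 df/+ and 3 +/+ mice). The median over the 30 genes was -0.57 in df/+ and 0.32 in dp/+ brain stems, both relative to +/+.

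The next comparison asked whether the dp/+ difference in brain stem departs from the mean dp/+ difference of the other regions. In that test 0 of 19938 genes passed the adjusted threshold (0%), and at an unadjusted p under 0.05, 0 of the 30 interval genes did in either direction, beside 1.83% of all genes higher and 3.94% lower in brain stem. The median of this difference between regions was -0.03 over the 30 genes. Without the brain stem libraries of +/+ mice 1 and 2 it was -0.04, and again 0 of the 30 passed the adjusted threshold. Cd2bp2 had the highest value, 0.18 ± 0.10, and 4930451I11Rik the lowest, -0.29 ± 0.16. The median dp/+ difference over the 30 genes was 0.32 for brain stem, 0.25 for olfactory bulb, 0.33 for cortex and 0.33 for cerebellum. Past the adjusted threshold were 8 of the 30 for bulb, 0 for cortex and 10 for cerebellum, beside 1.21%, 0% and 2.29% of all genes. The cortex contrast rests on 2 dp/+ mice, and those of bulb and cerebellum on 3. The brain stem estimate lay within the range of the other 3 regions for 21 of the genes, above it for 2 and below it for 7.

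**Figure D3:**
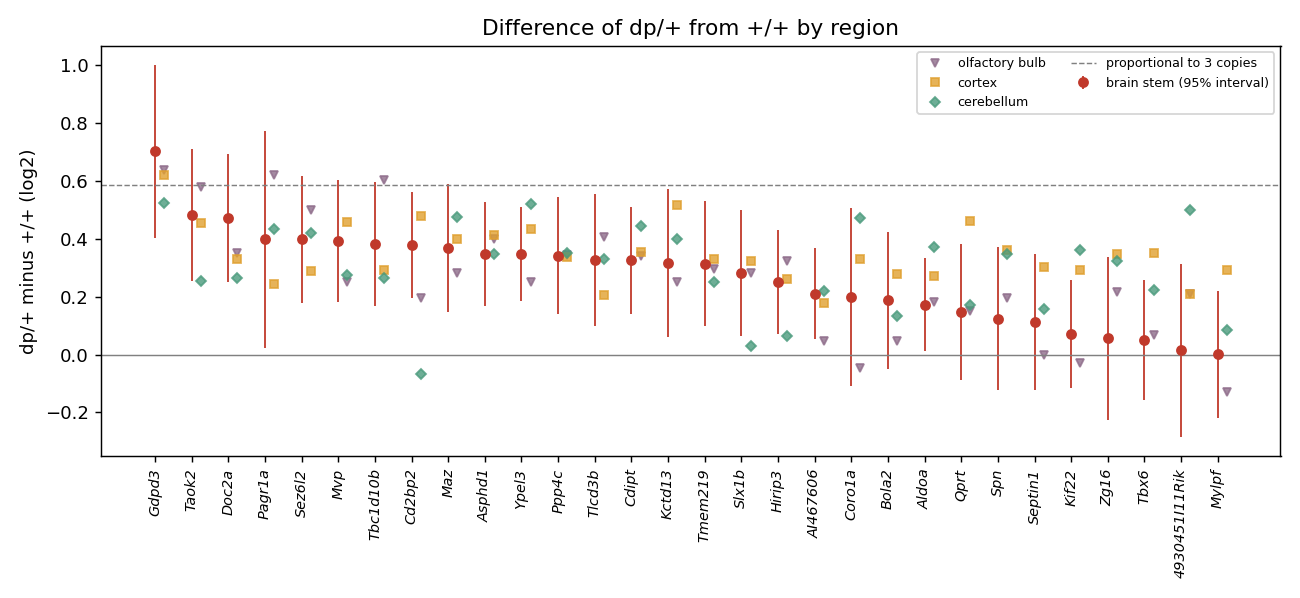
Difference of dp/+ from +/+ in log2 for each interval gene, for brain stem (circle, with its 95% interval) and for olfactory bulb, cortex and cerebellum (points to the right). The dashed line is proportional to 3 copies. The brain stem estimate lies within the range of the other 3 regions for 21 of 30 genes.

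Genes that work with interval proteins, taken from lists, did not pass the adjusted threshold. Of 9 measured genes around Kctd13, Cul3 and RhoA, 0 were past an unadjusted p of 0.05. Cul3 was 11.57, 11.59 and 11.82 in dp/+ and 11.53, 11.63 and 11.60 in +/+ brain stems, and Rhoa 12.94, 12.94 and 12.86 in dp/+ and 12.89, 12.83 and 12.87 in +/+ brain stems. The genotypes overlap for both. The same unadjusted count was 0 of 9 for protein phosphatase 4 and its relatives, 0 of 9 for the methyltransferase partners of Pagr1a, 0 of 14 for the Ino80 complex and 0 of 12 for glycolysis. At that p 1.58% of all genes were higher and 1.97% lower, so counts of 0 in lists this small cannot show a departure from all genes. In the kinase chain below Taok2, 2 of 11 were lower, Mapk8, a Jun kinase (-0.26 ± 0.10), and Map2k6, a kinase of p38 (-0.21 ± 0.09). The median of the 11 was -0.04 with all libraries and 0.01 against +/+ mouse 3 alone. In the ERK pathway 2 of 17 were lower, and both, Dusp6 (-0.41 ± 0.14) and Dusp4 (-0.35 ± 0.16), are phosphatases of MAP kinases. The median of these 17 was -0.04 with all libraries and -0.04 against +/+ mouse 3 alone. Of 17 genes of vesicle release 1 was lower, the fusion protein Stx1a, at 8.55, 8.57 and 8.54 in dp/+ brain stems, against 9.15, 9.17 and 8.63 in +/+ brain stems. Its difference was -0.43 ± 0.12 with all libraries and -0.09 against +/+ mouse 3 alone, and its level in +/+ cortex was 10.32. Dusp6 likewise was -0.11 against +/+ mouse 3 alone. Of 20 genes linked to autism 0 were past the unadjusted threshold in either direction, beside 1.58% of all genes higher and 1.97% lower. Their median was -0.02.

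Genes next to the interval gave no call. The mean of the 25 nearest measured genes beyond Slx1b was 8.47, 8.48 and 8.44 in dp/+ and 8.47, 8.43 and 8.48 in +/+ brain stems, and that of the 25 beyond Septin1 was 8.29, 8.33 and 8.24 in dp/+ and 8.29, 8.31 and 8.35 in +/+ brain stems. On both sides 0 of 25 passed the adjusted threshold. At an unadjusted p under 0.05, 0 were higher on either side, beside 1.58% of all genes. At that p 1 of 25 beyond Slx1b and 3 of 25 beyond Septin1 were lower, beside 1.97% of all genes. The 1 on the Slx1b side was Tufm, a mitochondrial elongation factor, with a difference of -0.19 ± 0.08. Beyond Septin1 the lowest difference was -0.28. The median of those 25 was -0.03 with all libraries and -0.07 against +/+ mouse 3 alone.

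Outside the interval 3 genes passed the adjusted threshold, and only Fads2b rose. Fads2b, annotated as a fatty acid desaturase, was 6.58, 6.11 and 6.39 in dp/+ brain stems, against 5.93, 5.30 and 5.49 in +/+ brain stems. Every dp/+ value was above every +/+ value, and the difference was 0.78 ± 0.13 (172% of +/+, adjusted p = 0.0333). It is dim: its +/+ mean was above that of 15.7% of genes. In df/+ brain stems it was 5.33 and 5.32. The dp/+ difference was 0.16 for olfactory bulb, -0.16 for cortex and 0.07 for cerebellum, and brain stem exceeded their mean by 0.76 ± 0.14 (adjusted p = 0.244). Against +/+ mouse 3 alone it was 0.85 (adjusted p = 0.285). Without dp/+ mouse 1, dp/+ mouse 3 or +/+ mouse 2 in turn, the adjusted p was 0.106, 0.229 and 0.418, and with the 6 brain stem samples fitted alone it was 1.

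Lower in dp/+ past the threshold were Mlip, a lamin-interacting protein, and Fam131a. Mlip was 8.01, 7.68 and 8.15 in dp/+ brain stems, against 8.97, 9.41 and 8.22 in +/+ brain stems, and it fell by 0.92 ± 0.16 (adjusted p = 0.0333). The 2 high +/+ values belong to mice 1 and 2, and against mouse 3 alone the difference was -0.29 (adjusted p = 1). Fam131a was 8.91, 8.48 and 8.63 in dp/+ brain stems, against 9.32, 9.57 and 9.16 in +/+ brain stems. All dp/+ values were lower, and it fell by 0.68 ± 0.12 (adjusted p = 0.0347), and the difference was -0.46 against +/+ mouse 3 alone (adjusted p = 1). Neither passed with any 1 mouse other than +/+ mouse 3 left out (adjusted p from 0.0738 for Mlip and from 0.054 for Fam131a), nor with the 6 brain stem samples fitted alone (adjusted p = 1). Both genes had higher levels in +/+ cortex, 10.44 for Mlip and 10.61 for Fam131a. Their df/+ brain stem values, 7.57 and 7.46 for Mlip and 8.72 and 8.54 for Fam131a, were near those of dp/+ mice and below all +/+ mice.

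The genes next in order on the lower side were high in the same +/+ mice. Kcnv1, a modulatory potassium channel subunit, was 7.55, 7.12 and 7.50 in dp/+ brain stems, against 8.48, 8.96 and 7.70 in +/+ brain stems, with a difference of -0.99 ± 0.18 (adjusted p = 0.0516) and -0.34 against +/+ mouse 3 alone. Mef2c, a transcription factor of excitatory neurons, was 9.66, 9.56 and 9.50 in dp/+ and 10.62, 10.86 and 9.74 in +/+ brain stems (-0.83 ± 0.18, and -0.15 against +/+ mouse 3 alone). Fezf2, a factor of deep-layer cortical neurons, was 7.21, 7.03 and 7.13 in dp/+ and 7.999, 8.48 and 7.24 in +/+ brain stems (-0.79 ± 0.18, and -0.13 against +/+ mouse 3 alone). In each of the 3 the values of +/+ mice 1 and 2 were high and that of mouse 3 close to dp/+. Across the array, 393 genes outside the interval were lower at an unadjusted p under 0.05. In df/+ mice, which are not in the comparison, 71.5% of the 393 were higher in cortex than in brain stem and 28.0% by more than 1 log2, against 45.3% and 1.72% of all genes outside the interval. Of the 296 genes that were higher at that p, 34.1% were higher in cortex and 0% by more than 1 log2.

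**Figure D4:**
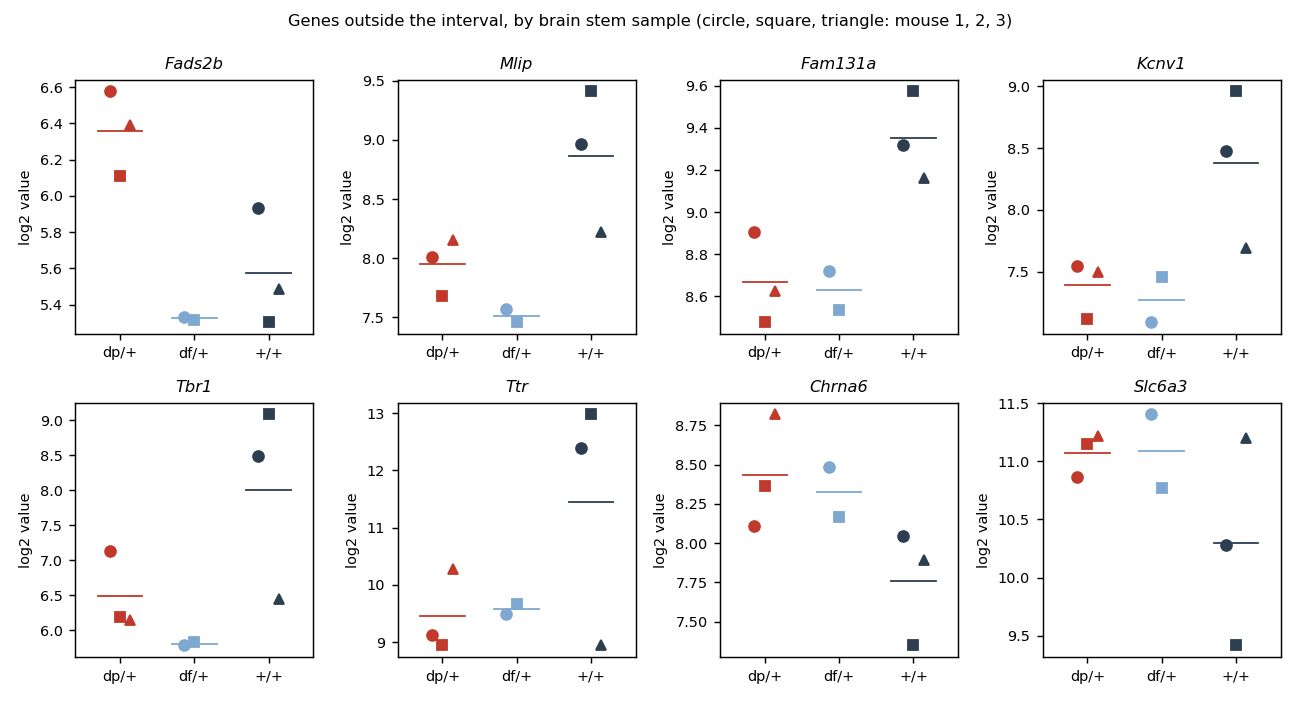
Log2 values of 8 genes outside the interval in each brain stem sample, with dp/+, df/+ and +/+ from left to right and a line at each mean. For Mlip, Kcnv1, Tbr1 and Ttr the +/+ mean is carried by mice 1 and 2 (circle and square), and for Slc6a3 the same mice are low.

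Tbr1 and Ttr belong to the lists by which +/+ mice 1 and 2 were set apart, so their values are not separate support. Tbr1, a factor of cortical projection neurons, was 7.13, 6.19 and 6.15 in dp/+ brain stems, 5.79 and 5.83 in df/+ brain stems and 8.49, 9.08 and 6.45 in +/+ brain stems, with 10.70 in +/+ cortex. Ttr, the transthyretin of choroid plexus, was 9.13, 8.95 and 10.28 in dp/+, 9.50 and 9.67 in df/+ and 12.39, 12.98 and 8.95 in +/+ brain stems. Of 8 cortex pyramidal genes 3 were lower at an unadjusted p under 0.05, beside 1.97% of all genes, with a median of -0.23 that was 0.01 against +/+ mouse 3 alone. Of 11 choroid plexus genes 2 were lower at that p, beside the same share, with a median of -0.52 that was 0.03 against mouse 3 alone. Because these lists set +/+ mice 1 and 2 apart, medians nearer 0 without those libraries follow from that choice. Slc6a3, the dopamine transporter of the midbrain, was 10.86, 11.15 and 11.21 in dp/+, 11.40 and 10.77 in df/+ and 10.28, 9.42 and 11.20 in +/+ brain stems, low in the same pair of mice. Its difference of 0.78 was the largest of 6 measured dopamine neuron genes. Their median was 0.08 with all libraries and -0.03 against +/+ mouse 3 alone. In bulk tissue, fewer cells of a type and less RNA per cell cannot be told apart. The part of these libraries in the 393 lower genes was not tested.

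**Figure D5:**
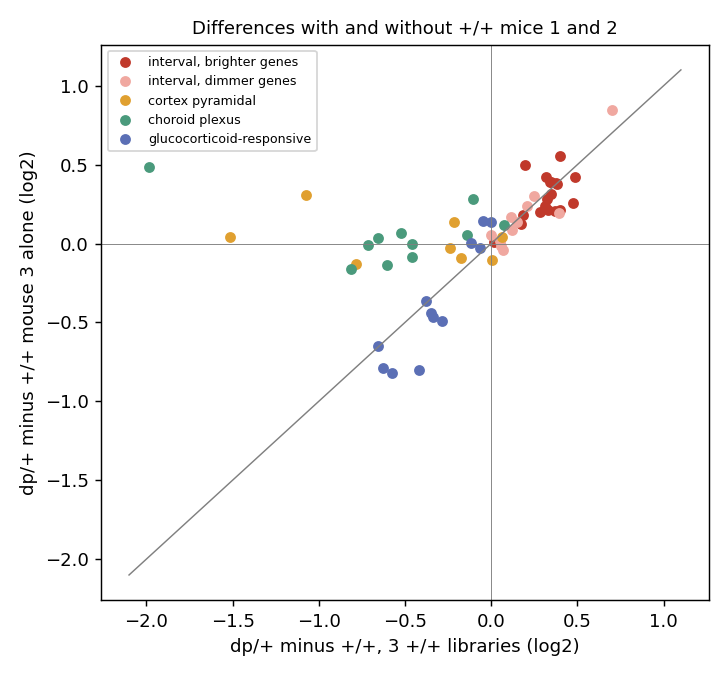
Difference of dp/+ from +/+ in log2 with all 3 +/+ brain stem libraries (horizontal) and against +/+ mouse 3 alone (vertical), for 5 groups of genes, with the line of equality. Most interval and glucocorticoid-responsive genes lie along the line, while the choroid plexus and cortex pyramidal genes with the most negative differences lie well above it, such as Ttr at -1.99 with all libraries and 0.48 against mouse 3 alone.

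Glucocorticoid-responsive genes had lower means in dp/+ brain stems with and without those libraries, and none passed the adjusted threshold. All 12 measured had a dp/+ mean below the +/+ mean, and 6 were lower at an unadjusted p under 0.05, beside 1.97% of all genes. The mean of the 12 was 9.46, 9.18 and 9.06 in dp/+ brain stems, 9.41 and 9.16 in df/+ brain stems and 9.45, 9.58 and 9.62 in +/+ brain stems. The value of dp/+ mouse 1 lay within the +/+ range, and those of mice 2 and 3 below it. The median difference was -0.34 with all libraries and -0.45 against +/+ mouse 3 alone, where 4 genes were lower at the unadjusted p, beside 1.06% of all genes. Zbtb16, a transcription factor induced by glucocorticoids, was 10.02, 9.53 and 9.43 in dp/+ and 10.01, 10.35 and 10.51 in +/+ brain stems (-0.63 ± 0.18, adjusted p = 0.756, and -0.79 against +/+ mouse 3 alone). Pdk4, a kinase that restrains pyruvate oxidation, was 9.60, 8.93 and 8.99 in dp/+ and 9.36, 9.88 and 10.01 in +/+ brain stems (-0.58 ± 0.20). Sgk1, a kinase named for its response to serum and glucocorticoids, was 10.60, 10.18 and 9.64 in dp/+ and 10.63, 10.96 and 10.79 in +/+ brain stems (-0.66 ± 0.23). For Sgk1 all dp/+ values were below all +/+ values, by a narrow gap for mouse 1. Fkbp5, a co-chaperone of the glucocorticoid receptor, was 8.21, 8.03 and 7.83 in dp/+ and 8.28, 8.52 and 8.41 in +/+ brain stems (-0.38 ± 0.14). The difference between brain stem and the other regions was -0.20 ± 0.20 for Zbtb16 and 0.08 ± 0.15 for Fkbp5, and neither passed that test. Over the 12 genes the median of that difference was -0.04, so the lower level was not particular to brain stem. At an unadjusted p under 0.05 in that test, 0 of the 12 were higher and 0 lower, beside 1.83% and 3.94% of all genes. Time of day and handling of the mice are not given in the labels.

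The medians of the lists of meninges, immediate early genes and small nucleolar RNAs were nearer 0 against +/+ mouse 3 alone. Of 12 genes of the meninges all had a dp/+ mean above the +/+ mean, beside 49.4% of all genes, and 6 were higher at an unadjusted p under 0.05, beside 1.58%. Their median was 0.27 with all libraries and 0.06 against +/+ mouse 3 alone. Fmod, a small proteoglycan of connective tissue, was 8.93, 9.05 and 9.26 in dp/+ and 8.67, 8.11 and 8.93 in +/+ brain stems. Its groups were just apart, by 0.51 ± 0.16, and by 0.14 against mouse 3 alone. Slc6a20a, a transporter of proline and related amino acids, was 10.71, 10.78 and 11.02 in dp/+ and 10.30, 9.98 and 10.60 in +/+ brain stems (0.55 ± 0.14, and 0.23 against mouse 3 alone). Of 15 immediate early genes 14 had a lower dp/+ mean, as 10098 of all 19938 genes did. At the unadjusted p 3 were lower, beside 1.97% of all genes. Their median was -0.23 with all libraries and 0.10 against mouse 3 alone. In df/+ brain stems it was -0.28 relative to the 3 +/+ libraries. Of 55 small nucleolar and Cajal body RNAs 43 had a lower dp/+ mean and 9 were lower at the unadjusted p, beside 1.97% of all genes, with a median of -0.13 that was 0.02 against mouse 3 alone. Snord104 was an exception, at 11.92, 12.18 and 12.47 in dp/+ and 12.86, 12.96 and 13.12 in +/+ brain stems, with -0.79 ± 0.20 for all libraries and -0.87 against mouse 3 alone. Snora23 was -0.74 ± 0.20 and -0.38.

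On the higher side, the genes with the smallest p or the largest difference did not pass the adjusted threshold, apart from Fads2b. Chrna6, a nicotinic receptor subunit of midbrain dopamine neurons, was 8.11, 8.36 and 8.82 in dp/+ and 8.04, 7.35 and 7.89 in +/+ brain stems (0.67 ± 0.15, adjusted p = 0.261, and 0.52 against +/+ mouse 3 alone). In df/+ brain stems it was 8.48 and 8.17, also above +/+. H2-Aa, a chain of MHC class II, was 7.63, 8.04 and 8.75 in dp/+ and 7.39, 7.36 and 7.54 in +/+ brain stems (0.71 ± 0.17, and 0.58 against mouse 3 alone). H2-Eb1, another class II chain, differed by 0.43 ± 0.13 and Cd180, a receptor of B cells and myeloid cells, by 0.53 ± 0.13, while the median of 11 microglia genes was -0.03. Dp/+ mouse 3 had the highest value for all 3 of these immune genes. Pkd2l1, a channel of neurons that contact the cerebrospinal fluid, was 6.56, 6.72 and 7.11 in dp/+ and 6.30, 6.29 and 6.34 in +/+ brain stems (0.49 ± 0.11, adjusted p = 0.288, and 0.46 against mouse 3 alone). Slc10a4, a vesicle protein of monoamine and cholinergic neurons, was 9.31, 9.44 and 9.45 in dp/+ and 8.58, 9.09 and 9.14 in +/+ brain stems (0.47 ± 0.15), and Tmem88b differed by 0.40 ± 0.12. For Slc10a4 and Tmem88b +/+ mouse 1 was the lowest, and against mouse 3 alone both differed by 0.24. In the test between regions the smallest p values were those of Fads2b and Chrna6 on the higher side and of Kcnv1 and Ncf4 on the lower side. Ncf4, a subunit of the phagocyte oxidase, differed by -0.41 ± 0.09 between regions and by -0.20 ± 0.08 in brain stem itself.

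Marker lists of serotonin neurons, myelin and astrocytes overlapped between dp/+ and +/+ brain stems, and that of endothelium and pericytes did not. The mean of 7 serotonin neuron genes was 9.20, 9.22 and 9.13 in dp/+ and 8.96, 9.20 and 9.25 in +/+ brain stems. The mean of 14 myelin genes was 11.31, 11.42 and 11.38 in dp/+ and 11.19, 11.36 and 11.35 in +/+ brain stems, and that of 12 astrocyte genes 11.39, 11.42 and 11.42 in dp/+ and 11.30, 11.34 and 11.40 in +/+ brain stems. Of the genes in these 3 lists 1 was past an unadjusted p of 0.05, the serotonin and dopamine enzyme Ddc (0.34). At that p 1.58% of all genes were higher and 1.97% lower. Of 17 Hox genes of the hindbrain 2 were lower at that p, beside 1.97% of all genes, with a median of -0.04. The mean of 11 genes of endothelium and pericytes was 8.94, 9.10 and 9.15 in dp/+ and 8.92, 8.93 and 8.84 in +/+ brain stems, higher by 0.17 on average and by 0.22 against +/+ mouse 3 alone. The lowest dp/+ value, of mouse 1, was just above the highest +/+ value. In df/+ brain stems this mean was 8.86 and 9.10, the latter within the dp/+ range. Of the 11 genes 10 had a dp/+ mean above the +/+ mean, beside 49.4% of all genes, and 3 were higher at an unadjusted p under 0.05, beside 1.58%. These were the tight junction gene Cldn5 (0.41 ± 0.15, and 0.58 against +/+ mouse 3 alone), Pdgfrb (0.23 ± 0.09) and Tek (0.30 ± 0.14).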

How the data were processed

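The authors' deposited values are log2 probe set summaries of 37 Affymetrix arrays, made with RMA (background correction, quantile normalisation and summary over probes) in Affymetrix Expression Console per the submitters' processing notes, which give no versions. The base of the logarithm was read from the values. Arrays of 1 sample were averaged. Of 35556 probe sets, 21789 have 1 gene symbol, and the brightest per gene gave 19938 genes, named through GRCm38.p6.

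limma 3.58.1 in R 4.3.3 (statmod 1.5.0) fitted the means of 12 region and genotype groups to all 31 region samples, taking each mouse as a random block (consensus correlation 0.12, 19 residual degrees of freedom). The Benjamini-Hochberg adjustment ran over the 19938 genes, and calls needed an adjusted p under 0.05. The procedure was tested on simulated data. Median SD between mice was 0.10 in dp/+ and 0.13 in +/+ brain stems, and between 2 arrays of 1 sample 0.075. The number of arrays limits the precision. The labels give no batch, so none was tested.

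Members and gene lists were chosen with earlier results of these data known. The rule names every interval gene; outside it, called genes (up to 12 a direction) or the 5 with the smallest p; up to 3 flanking genes a side; the 6 largest brighter differences without overlap a direction; 2 a direction for the test between regions; and up to 4 a list. Leaving out the brain stem libraries of +/+ mice 1 and 2 was an alternative added after seeing the data. Alternatives changed the samples fitted, block, normalisation, dim genes, gene summary, prior, array weights, technical repeats, family of tests and mice.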

Additional observations from a re-analysis of the deposited data

How the results depend on the processing

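The interval mean was higher in dp/+ in every setting in which it was computed, by 0.273 log2 in the main one. It was 0.264 to 0.282 with a mouse left out and 0.262 without the brain stem libraries of +/+ mice 1 and 2. With arrays centred on their medians it moved to 0.296. It was not computed for some settings, among them array weights and the prior. Interval genes higher at an unadjusted p under 0.05 numbered 17 to 20 with a mouse left out, 16 among brighter genes only and 13 without those 2 libraries. At an adjusted p, 0 to 1 interval genes were called with a mouse left out (Taok2 without +/+ mouse 1, Doc2a without +/+ mouse 3) and 1 with array weights (Gdpd3). The calls outside the interval, 1 higher and 2 lower, were less stable. They numbered 0 and 0 with the 6 brain stem samples alone, with the 8 of all genotypes, and without the brain stem libraries of +/+ mice 1 and 2. Brighter genes only gave 0 higher and 3 lower, arrays centred on their medians 1 and 1, and cyclic loess and array weights 1 higher and 0 lower each. With a mouse left out, 0 to 4 were higher and 0 to 29 lower, with 0 of both without dp/+ mouse 1 or +/+ mouse 2; without dp/+ mouse 3 the 1 higher gene was Cga in place of Fads2b. The 4 higher and 29 lower came without +/+ mouse 3, which leaves the libraries with high cortex markers as the +/+ group, and Tbr1, Ttr, Mef2c and Kcnv1 were among them. The test between regions called 0 genes, 1 under quantile normalisation again, under cyclic loess and under array weights, and 0 to 12 with a mouse left out, the 12 again without +/+ mouse 3. The cause of these differences was not tested. No named gene's call changed sign, but estimates of genes that were not called did in some settings. The immediate early gene Arc went from -0.39 to 0.24 against +/+ mouse 3 alone. The cerebellar granule cell gene Cbln3 went from 0.62 to -0.23 without dp/+ mouse 1. With a single +/+ brain stem, its spread is assumed to be that of the other groups.

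The replicate number as a block, in the 6 brain stem samples, gave 0 calls higher and 0 lower, and 17 interval genes higher at the unadjusted p. Deviations of same-numbered dp/+ and +/+ samples correlated at -0.102, -0.314 and -0.114. None of these values is positive, but with 3 samples per genotype they cannot exclude a pairing by number.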
